A study of Mus musculus with 2 samples.

Results

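Spp1, Ldhb, Fam19a1, Necab2 and Vsnl1 are 5 genes used as markers of the large-diameter, neurofilament-rich sensory neurons of the dorsal root ganglion (DRG). They were found in the deposited tables by their gene symbols and cover 10 of the 35034 listed transcripts and 5 of the 24411 genes. They were chosen from earlier results on the same TPM values, in which Spp1 stood out, so their differences between the groups are described and not tested. Each group was 1 library made from the pooled DRG neurons of 10 C57BL/6 mice (C57BL/6J in the methods of the study). The mice were males of 6 to 8 weeks that received intraperitoneal injections of 200 µl with 50% alum, an adjuvant of aluminium salts, on days 0 and 14. In the alum + KLH-immunized group the injections also held 100 µg of keyhole limpet hemocyanin (KLH), a foreign protein antigen, and the alum-injected group received the adjuvant alone. Their libraries are called the KLH pool and the alum pool. Thoracic and lumbar ganglia were taken on day 28, digested, enriched for neurons on an albumin cushion and depleted of B lymphocytes with beads. The label of the control library calls it both naïve and given only alum, and it is treated here as alum-injected.

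Large-fibre DRG neurons have thick myelinated axons. They include the proprioceptors, which report muscle stretch and tension, and the low-threshold mechanoreceptors with thick fibres, which report light touch. Thin and mostly unmyelinated fibres carry pain, itch and temperature, and some of them, the C-fibre low-threshold mechanoreceptors, also report touch. Osteopontin, the product of Spp1, is a secreted, acidic phosphoprotein best known from bone and activated macrophages, and in the DRG it marks large neurons, proprioceptors among them. The other markers encode a metabolic enzyme (Ldhb), a secreted chemokine-like protein (Fam19a1, now Tafa1) and cytosolic calcium-binding proteins with EF-hand motifs (Necab2 and Vsnl1).

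Values are TPM, a measure of transcript abundance that is scaled by transcript length and by the library total, so that levels can be compared between genes. TPM keeps no read counts, the depth of the libraries is therefore unknown from the tables, and no interval or detection limit was computed. A gene above 3 TPM in at least 1 pool was called detected. Differences are log2 ratios, KLH over alum, after 1 TPM was added to each value, a scale that understates the change of low genes. With 1 library per group no difference has a replicate check. Each log2 ratio is set beside the SD of the log2 ratio over the 500 genes (or transcripts) of most similar abundance. That SD is a description of these 2 libraries and measures no spread between mice. In such pooled RNA, fewer cells of a type and less RNA per cell cannot be told apart.

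The Spp1 gene lies on chromosome 5 from 104435118 to 104441050 of GRCm38 (the assembly also named mm10) on the plus strand. Its annotated transcripts begin at a pair of places, an upstream start and a start inside the first intron. Both 300-base windows around these starts (250 bases before and 50 after, RefSeq annotation of GRCm38.p6, plus strand) are shown because the Spp1 transcripts behind them differed between the pools by different amounts. Capitals mark the letters of a TATA box, of a core motif of the RUNX factors and of a CCAAT box, wherever in the window they occurred. The letters searched for the first were TATAAA, those of the RUNX core were AACCACA and those of the last were CCAAT, on both strands. The upstream window is chr5:104434861-104435160 and the intronic one chr5:104435942-104436241.
Spp1 upstream start: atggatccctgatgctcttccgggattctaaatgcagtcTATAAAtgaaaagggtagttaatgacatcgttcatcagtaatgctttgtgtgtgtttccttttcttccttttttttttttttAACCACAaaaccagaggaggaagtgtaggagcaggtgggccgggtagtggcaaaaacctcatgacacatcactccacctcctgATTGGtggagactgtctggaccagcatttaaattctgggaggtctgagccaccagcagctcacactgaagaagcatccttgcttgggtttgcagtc
Spp1 start inside the first intron: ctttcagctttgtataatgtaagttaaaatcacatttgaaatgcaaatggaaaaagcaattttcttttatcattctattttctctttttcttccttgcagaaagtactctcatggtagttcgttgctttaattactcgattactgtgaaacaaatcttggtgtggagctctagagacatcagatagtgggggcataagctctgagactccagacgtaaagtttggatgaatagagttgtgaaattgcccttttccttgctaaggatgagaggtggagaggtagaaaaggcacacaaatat
The upstream window held each motif once, and none overlapped another. TATAAA began at position -211, AACCACA at -129 and CCAAT, on the opposite strand, at -46. Positions count from the RefSeq start at 104435111, which differs from the gene start of 104435118 given above. The intronic window held no match to these letters. Over all 32851 promoter windows of the same length, 13.6% held TATAAA, 5.27% AACCACA and 37.4% CCAAT. These matches are descriptions of the letters only, and the motifs were chosen after the sequences had been seen.

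Spp1 was the marker that differed most between the pools. Its transcripts summed to 196 TPM in the alum pool and 352 TPM in the KLH pool. The KLH pool was thus 1.80-fold higher, a gain of 156 TPM. The log2 ratio of 0.84 compared with an SD of 0.19 among the 500 genes of similar abundance. Across the 11648 genes above 3 TPM in at least 1 pool, 1.00% were at least 1.5-fold higher in the KLH pool, Spp1 among them, and it ranked 90 of these genes by log2 ratio. Among the 2156 genes with at least 100 TPM in the alum pool, only Snord64, a small nucleolar RNA gene named here after its values were seen, had a larger log2 ratio (0.88). The limit of 100 TPM was not among the planned rules, and it leaves out genes that were below it in the alum pool. In the alum pool 1077 genes had a higher TPM than Spp1, and in the KLH pool 555 did.

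**Figure D1:**
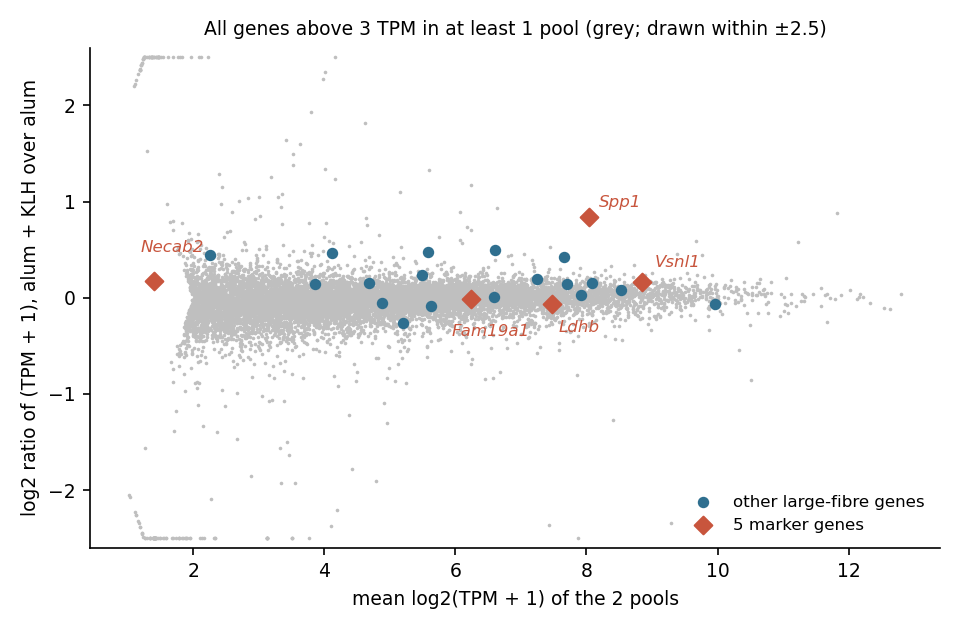
Log2 ratio of (TPM + 1), alum + KLH over alum (vertical axis), against the mean log2(TPM + 1) of the pools (horizontal axis) for the 11648 genes above 3 TPM in at least 1 pool (grey), with the 5 marker genes (diamonds, Necab2 added from below the threshold) and the other large-fibre genes above the threshold (blue circles). Spp1 lies at 0.84, above most grey points of its abundance, while Vsnl1, Ldhb and Fam19a1 lie among them, and grey points beyond the axis limits are drawn at its edges.

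The tables hold 5 Spp1 transcripts. The most abundant, NM_009263, was at 141 TPM in the alum pool and 265 TPM in the KLH pool. It made up 71.9% and 75.1% of the gene, in the same order, and 79.2% of the gain. Its log2 ratio was 0.90, against an SD of 0.22 among transcripts of similar abundance. NM_001204233, whose first exon of 251 bases begins at 104436192 inside the first intron of the other models, was at 46.3 and 54.5 TPM, and its log2 ratio of 0.23 compared with an SD of 0.20. The 4 transcripts from the upstream start together were at 149.8 and 298 TPM, 1.99-fold apart, while the intronic start was 1.18-fold apart. The upstream start thus held 94.7% of the gain in Spp1, and the share of the intronic start in the gene was 23.6% in the alum pool and 15.5% in the KLH pool.
The remaining 3 Spp1 transcripts were low. NM_001204203 was at 6.87 TPM in the alum pool and 29.7 TPM in the KLH pool, and NM_001204201, which the annotation links to the same exon model, was at 1.81 TPM and 3.74e-07 TPM. The model linked to both has an additional exon of 3 bases, and both together were at 8.68 and 29.7 TPM. Their RefSeq sequences were not compared, so it is unknown whether both rows hold this exon. NM_001204202, with a longer first exon of 128 bases against 79, was at 0.17 and 3.39 TPM. Among the exon models, 3 have an identical coding sequence of 882 bases (294 codons before the stop). The model with the 3-base exon has 885 bases, so the annotated models differ mainly before the start codon.
How kallisto divided the reads among these rows rests on short stretches. Of the 1477 words of 31 bases in the model of NM_001204233, 181 occur in no other Spp1 model listed here, and NM_009263 has 2 such words. Another annotated gene on the same strand, Gm42793 (104435121 to 104436372), covers the first exon and the first intron, holds 151 of these 181 words and has no row in the tables. The upstream start is affected as well. Of the 192 words found only in its models, 99 also occur in Gm42793. The division among the rows does not change the reads given to the gene as a whole. It can change the TPM sum through the different lengths of the rows. Whether reads from Gm42793 entered the Spp1 sum was not tested.

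**Figure D2:**
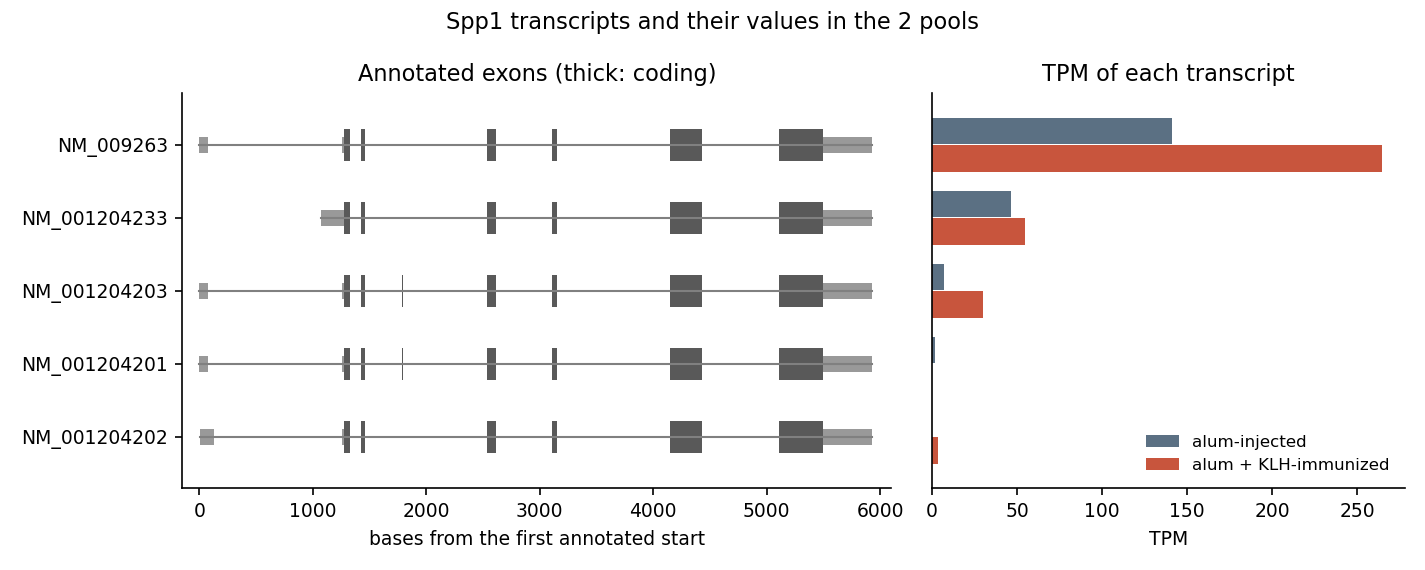
Left, exons of the annotated models linked to the 5 listed Spp1 transcripts, against the distance in bases from the first annotated start. Thick boxes are coding, thin boxes are untranslated, and the 3-base exon is widened to be visible. Right, TPM of each transcript in the alum-injected (blue) and alum + KLH-immunized (red) pools. The bars of NM_009263 run from 141 to 265 TPM, whereas those of NM_001204233, which begins inside the first intron, run from 46.3 to 54.5 TPM.

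Osteopontin acts on cells through integrins and through CD44, a receptor for hyaluronan. Of 13 listed genes for its receptors, its kinase and its proteases, 6 were detected, and 0 of these were at least 25% higher in the KLH pool or at least 20% lower. Over all detected genes these limits, set on the (TPM + 1) scale, were reached by 2.29% and 5.39%. Cd44 was at 409 TPM in the alum pool and 409.7 TPM in the KLH pool, and the integrin β1 gene Itgb1 at 478 and 479.5 TPM. The integrin αv gene Itgav was at 50.6 and 51.7 TPM and the α4 gene Itga4 at 13.7 and 15.0 TPM. Cd44 was thus 2.09 times the level of Spp1 in the alum pool and 1.16 times in the KLH pool. Fam20c, the kinase that phosphorylates secreted acidic proteins, was at 4.12 and 3.53 TPM, while Itgb3 stayed below the threshold at 1.61 and 1.74 TPM.
Spp1 belongs to the SIBLING family of acidic matrix proteins, encoded side by side in the genome. Ibsp, bone sialoprotein, was the next of this family at 15.1 and 16.0 TPM and Dmp1 was at 1.39 and 1.53 TPM. Mepe and Dspp were listed at 0 in both pools. Spp1 made up 92.3% of the family sum in the alum pool and 95.3% in the KLH pool.

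Markers of macrophages and bone, which also express Spp1, were read beside it. Of 14 macrophage genes in the tables, 2 were detected, Cd14 at 3.93 and 3.79 TPM and Lyz2 at 3.90 and 3.86 TPM. The 14 genes summed to 18.4 TPM in the alum pool and 17.6 TPM in the KLH pool, and Trem2 was at 0 in both. The part of such cells in the Spp1 difference was not tested. Of 11 bone and cartilage genes, 2 were detected, Ibsp and the transcription factor gene Runx2 (8.65 and 8.53 TPM), while both osteocalcin genes, Bglap and Bglap2, were at 0 and Col1a1 was at 0.44 and 0.25 TPM. That list summed to 28.02 and 28.3 TPM. The Schwann cell, satellite glia, and fibroblast and endothelium lists summed to 2171, 1473 and 93.9 TPM in the alum pool and to 2131, 1357 and 91.7 TPM in the KLH pool.

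Vsnl1 was the highest of the markers in both pools. It encodes visinin-like protein 1, a neuronal calcium sensor that moves to membranes when calcium rises, and lies on chromosome 12 from 11325242 to 11436613 on the minus strand. Its single listed transcript, NM_012038, was at 433 TPM in the alum pool and 487 TPM in the KLH pool. This 1.12-fold difference, a log2 ratio of 0.17, was about the SD of 0.16 among genes of similar abundance. Of all genes, 417 were higher than Vsnl1 in the alum pool and 365 in the KLH pool.
Of its relatives among the calcium sensors, Ncald was at 213 and 206 TPM, Hpcal1 at 79.1 and 61.0 TPM and Ncs1 at 41.4 and 38.4 TPM. Over 7 genes of the visinin-like and neuronal calcium sensor family, Vsnl1 made up 55.6% of the sum in the alum pool and 60.7% in the KLH pool. The wider list of 10 related sensors had 8 detected genes with a median log2 ratio of -0.096, beside -0.020 over all detected genes. In that list Hpcal1 (log2 ratio -0.37) and Hpca (-0.41; 10.9 and 7.96 TPM) were at least 20% lower in the KLH pool, 2 of the 8 detected genes beside 5.39% of all detected genes. Kcnip4, a subunit partner of A-type potassium channels, was the highest of the list at 751 and 731 TPM.

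Ldhb encodes the heart-type subunit of lactate dehydrogenase, the tetrameric enzyme that interconverts lactate and pyruvate, and lies on chromosome 6 from 142490249 to 142507957 on the minus strand. Its sum was 180.4 TPM in the alum pool and 173 TPM in the KLH pool. Its log2 ratio was -0.060, while genes of similar abundance had an SD of 0.16. Beneath this sum, the transcripts listed for Ldhb differed in opposite directions. NM_008492 was at 107 TPM in the alum pool and 139 TPM in the KLH pool. NM_001302765 was at 73.2 and 34.4 TPM, a log2 ratio of -1.07 against an SD of 0.19 among transcripts of similar abundance. The share of NM_001302765 in the gene was 40.6% in the alum pool and 19.9% in the KLH pool. The annotation links both identifiers to the same exon model of 8 exons, so no annotated exon used here separates them. In addition, 41.4% of the 31-base words of this model also occur in Gm5514, another annotated gene, which has no row in the tables. The model, and with it this share, is the same for both rows. Their RefSeq sequences were not compared, so it is unknown what sequence separated them for kallisto. Whether the opposite differences go beyond its division of the reads was not tested.
The muscle-type subunit gene Ldha was at 286 and 254 TPM. Ldhb made up 38.7% of the Ldha and Ldhb sum in the alum pool and 40.6% in the KLH pool. Of 12 listed genes for lactate dehydrogenases, lactate transporters and pyruvate entry into mitochondria, 8 were detected and 0 were at least 25% higher (2.29% of all detected genes) or at least 20% lower (5.39%). The monocarboxylate transporter genes Slc16a1 and Slc16a7 were at 118 and 123 TPM and at 19.6 and 19.8 TPM. Mpc1 and Mpc2, which form the mitochondrial pyruvate carrier, were at 638 and 738 TPM and at 273 and 322 TPM.

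**Figure D3:**
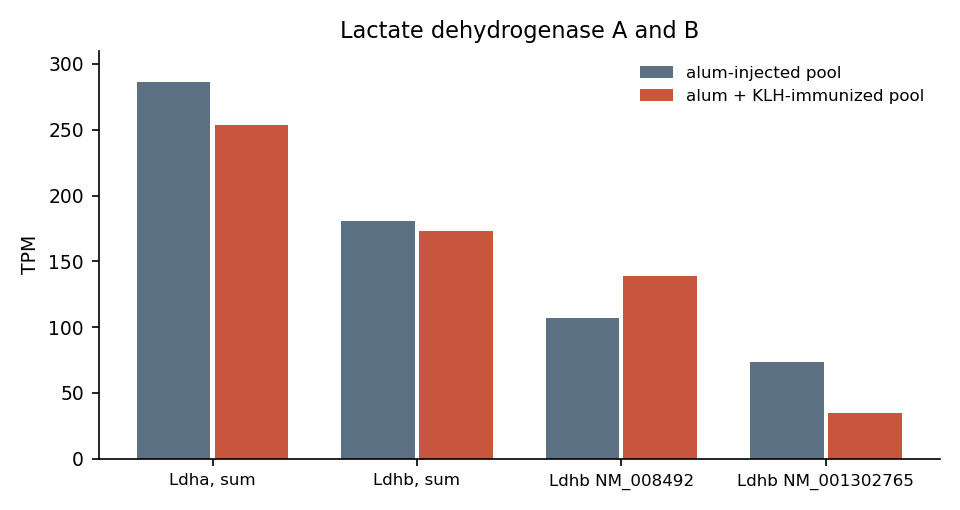
TPM (vertical axis) of the summed Ldha and Ldhb genes and of the 2 listed Ldhb transcripts in the alum-injected (blue) and alum + KLH-immunized (red) pools. The Ldhb sum was 180.4 and 173 TPM, while NM_008492 was at 107 and 139 TPM and NM_001302765 at 73.2 and 34.4 TPM.

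Fam19a1 encodes a small secreted protein of a brain-enriched family whose members bind neurexins, and spans chromosome 6 from 96113154 to 96657198 on the plus strand. Its single listed transcript, NM_182808, was at 75.1 TPM in the alum pool and 74.2 TPM in the KLH pool, and its log2 ratio of -0.016 was the smallest in size of the markers (0.0046 after rescaling by the median ratio). The SD among genes of similar abundance was 0.14. All 5 family genes were detected. Fam19a2 was the highest at 109 and 130.1 TPM, followed by Fam19a4, a marker of the C-fibre low-threshold mechanoreceptors, at 107 and 104.5 TPM. Fam19a1 made up 23.4% of the family sum in the alum pool and 22.1% in the KLH pool. Of the neurexin genes, Nrxn3 was at 63.8 and 66.8 TPM. Nrxn2 was lower, at 8.84 and 5.74 TPM, a log2 ratio of -0.55 against an SD of 0.52 among similar genes.

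Necab2 did not pass the 3 TPM threshold in either pool. It encodes a neuronal calcium-binding protein that binds the receptors encoded by Adora2a (adenosine) and Grm5 (glutamate) and lies on chromosome 8 from 119446719 to 119472640 on the plus strand. NM_054095, its single listed transcript, was at 1.48 TPM in the alum pool and 1.81 TPM in the KLH pool. The log2 ratio of 0.18 compared with an SD of 0.94 among genes of similar abundance, and 53.2% and 50.9% of all genes were higher. Its relative Necab1 was at 279 and 290 TPM and Necab3 at 32.9 and 30.7 TPM, so that Necab2 made up 0.47% and 0.56% of the family sum. The receptor genes Adora2a (0.44 TPM in both) and Grm5 (1.66 and 1.81 TPM) were below the threshold too. As a marker of large-fibre neurons, Necab2 was therefore not detected in these preparations at 3 TPM, while the other 4 markers were.

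In the alum pool the order of levels was Vsnl1, Spp1, Ldhb, Fam19a1 and Necab2. Spp1 was 1.09 times Ldhb there, and with 1 library no spread is known by which to judge so small a step. In the KLH pool the values had the same order, but Spp1 was 2.04 times Ldhb, and Vsnl1, which had been 2.21 times Spp1, was 1.38 times. The other steps were at least 2.33-fold in either pool. At the level of single rows, 8 of the 10 were above 3 TPM in at least 1 pool. Of these, 3 Spp1 transcripts were at least 1.5-fold higher in the KLH pool (3.50% of all 14215 such transcripts). Among the 3, NM_001204202 (0.17 and 3.39 TPM) passed 3 TPM only through the KLH pool. The 3 are rows of 1 gene, among which kallisto divided the reads, and not separate observations. Of the 8 rows, 1, NM_001302765 of Ldhb, was at least 1.5-fold lower (5.01%). It shares its annotated model with the other Ldhb row, so it is not a separate observation either.

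**Figure D4:**
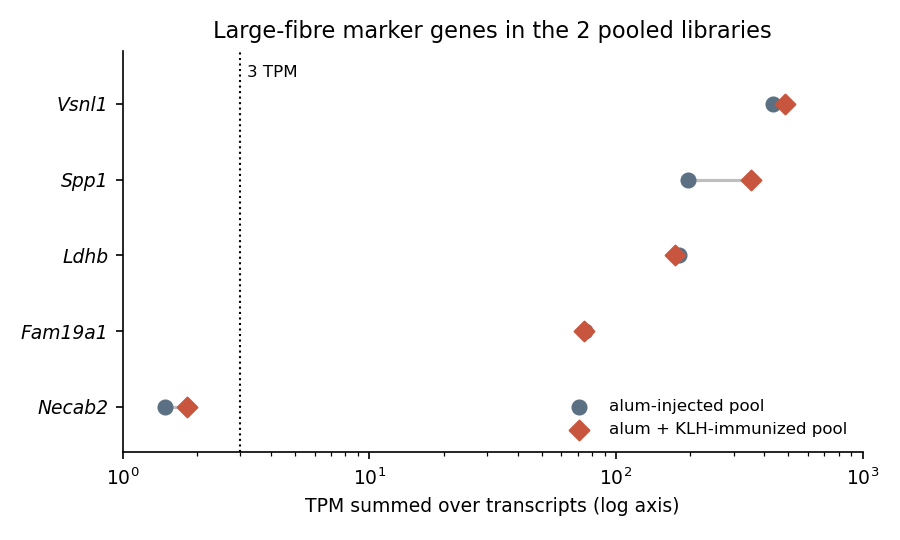
TPM summed per gene (horizontal log axis) for the 5 marker genes in the alum pool (blue circles) and the KLH pool (red diamonds), 1 value per pool, with the 3 TPM threshold dotted. Spp1 runs from 196 to 352 TPM, the points of Ldhb and of Fam19a1 nearly coincide between the pools, and Necab2 lies left of the threshold.

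Other genes of large-fibre neurons were read from a list that left out the 5 markers. Of its 22 genes, 18 were detected, all of them in both pools. Of these, 0 were at least 1.5-fold higher in the KLH pool (1.00% of all detected genes) and 0 at least 1.5-fold lower (1.55%). At the smaller limits, 5 were at least 25% higher (2.29%) and 0 at least 20% lower (5.39%). In all, 14 of the 18 had a higher value in the KLH pool (43.6% of all detected genes did), and 4 had a lower value. Relative to Hprt 7 were lower, beside 9199 of all 11648 detected genes. The median log2 ratio was 0.15, beside -0.020 over all detected genes.
Of the 5 genes at least 25% higher, 4 were proprioceptor genes and the other was Calb2. Pvalb, the calcium buffer parvalbumin, was at 80.4 TPM in the alum pool and 114 TPM in the KLH pool. Its log2 ratio was 0.50 and the SD of similar genes 0.14. Etv1, a transcription factor needed by many proprioceptors, was at 173 and 232 TPM (log2 ratio 0.42, SD 0.21). Esrrg, an orphan nuclear receptor, was at 39.5 and 55.5 TPM (log2 ratio 0.48, SD 0.13). Heg1 was near the threshold at 3.10 and 4.59 TPM, and its log2 ratio of 0.45 was within the SD of 0.51. The 4 detected proprioceptor genes were therefore all at least 25% but less than 1.5-fold higher, with a median log2 ratio of 0.46. Runx3, the transcription factor that sets proprioceptor identity, was below 3 TPM at 2.83 and 2.48 TPM, and Whrn was at 0.59 and 0.57 TPM.
The 5 detected low-threshold mechanoreceptor genes had log2 ratios from -0.052 to 0.47. The neurotrophin receptor genes Ntrk2 and Ntrk3 were at 94.9 and 95.8 TPM (lower in the KLH pool when expressed relative to Hprt) and at 29.1 and 27.99 TPM. Calb1 was at 198 and 218 TPM and Maf at 40.4 and 47.8 TPM, and Calb2, which encodes calretinin, was at 13.8 and 19.4 TPM (log2 ratio 0.47, SD 0.35). Their median log2 ratio was 0.14, while below the threshold Cacna1h was at 1.86 and 1.43 TPM and Mafa at 0. Among the 9 genes shared by myelinated neurons, all detected, the median was 0.080. Nefh, the heavy neurofilament gene, was at 1021 and 973 TPM, and the potassium channel genes Kcna1 and Kcna2 at 358 and 378 TPM and at 239 and 244 TPM (both lower in the KLH pool when expressed relative to Hprt).

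**Figure D5:**
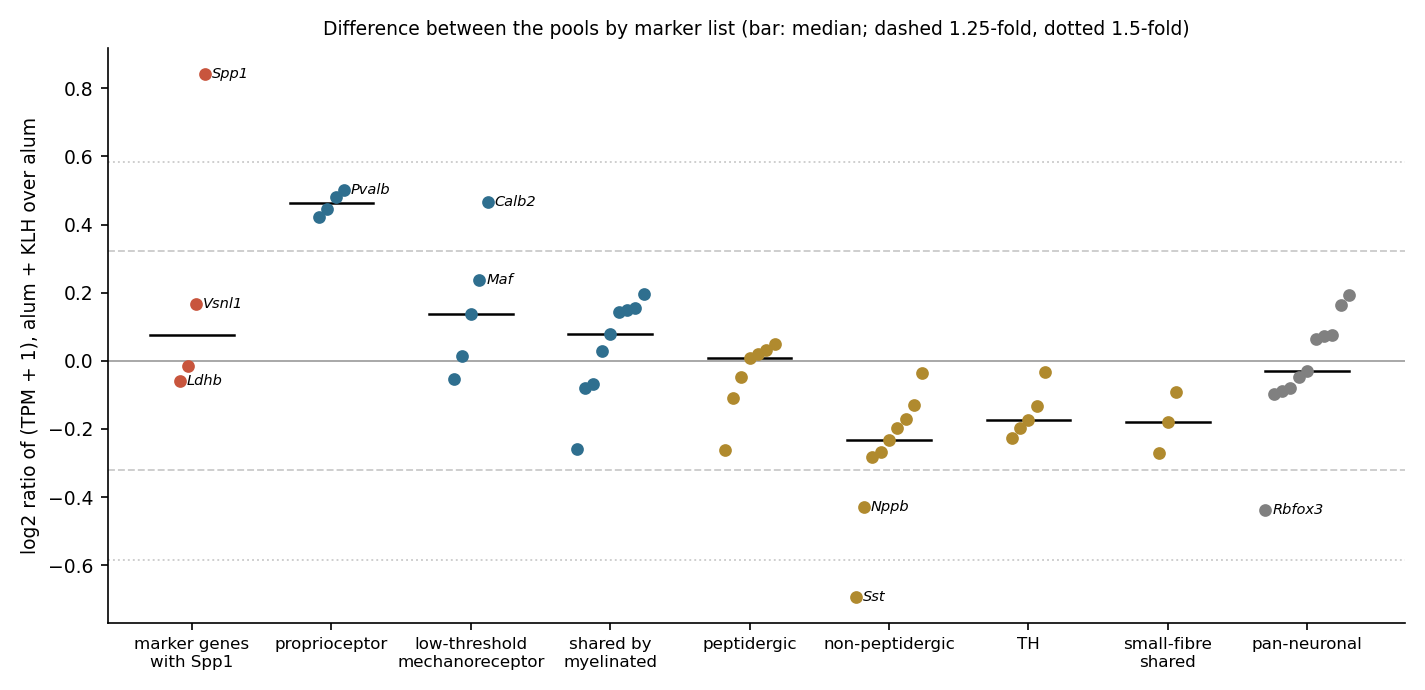
Log2 ratio of (TPM + 1), alum + KLH over alum (vertical axis), for each detected gene of the marker genes (red), the 3 large-fibre lists (blue), the 4 small-fibre lists (ochre) and the pan-neuronal list (grey), with list medians as bars and the limits of the smaller and the 1.5-fold rule as lines. Spp1 at 0.84 lies above the 1.5-fold line, the 4 proprioceptor genes lie between both lines, and most small-fibre genes lie below 0.

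Small-fibre genes were read for contrast. All 24 were detected, and 20 had a lower value (56.4% of all detected genes did), with a median log2 ratio of -0.17. Relative to Hprt all 24 were lower, but so were 9199 of all 11648 detected genes. The 4 with a higher value were all peptidergic (Calcb, Tac1, Trpv1 and Adcyap1), and each was lower in the KLH pool when expressed relative to Hprt. The 7 peptidergic genes had a median log2 ratio of 0.0086, and the medians of the non-peptidergic, TH and shared small-fibre genes were -0.23, -0.17 and -0.18. The TH list held Th, Slc17a8, Fam19a4, Gfra2 and Piezo2. A gene of such a list need not be confined to small-fibre neurons. Of all 24, 2 were at least 20% lower (5.39%), Sst at 7.06 and 3.99 TPM and Nppb at 12.4 and 8.95 TPM. Scn10a, the gene of a nociceptor sodium channel, was at 300.5 and 282 TPM, and Prph, the neurofilament-like peripherin of small neurons, at 244 and 202 TPM. The 11 pan-neuronal genes had a median log2 ratio of -0.029. Of these, 6 had a lower value (56.4% of all detected genes) and 1 was at least 20% lower (5.39%). With 1 library per group, the immunization and the pool cannot be told apart in any of these lists.

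The genes nearest to each marker over the 2 libraries, by distance in log2(TPM + 1), were Maged1 and Stt3b for Ldhb (0.0048 and 0.012), Nub1 and Inadl for Fam19a1 (0.011 and 0.012), and Dld and Sepp1 for Vsnl1 (0.024 and 0.032). Spp1 had no near match: 1700020I14Rik (251 and 303 TPM) and Gm10094 (213 and 265 TPM) were closest, at 0.41 and 0.43. For Necab2 the nearest detected genes, Kcnk6 and Smr3a, were at 0.54 from it.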

How the data were processed

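RNA of DRG neurons from 10 mice per group was pooled and made into 1 stranded mRNA library per group. The authors demultiplexed the reads with bcl2fastq, trimmed them with cutadapt and quantified them with kallisto on the annotated mm10 transcriptome, without a search for new transcripts (tools and build also per the submitters' processing notes; versions not given in the sources used here). The authors deposited 1 TPM value for each RefSeq transcript, with a sum of 1000000 per library and no read counts. TPM was summed over rows of the same symbol. The pools were compared as log2 ratios with a pseudocount of 1 TPM, without tests, as each group has 1 library. Alternatives were pseudocounts of 0.1 and 0.5 TPM, the highest row of a gene, other scalings, removal of short noncoding rows, thresholds of 0 and 10 TPM, and fold limits of 2 and of 25% higher or 20% lower. Named genes were the 5 markers, genes of the lists, and the 2 nearest genes of each marker, with Snord64 added after its values were seen. The markers and lists were chosen with earlier results of these data known. All 10 RefSeq identifiers matched GENCODE M21 (GRCm38, the assembly of mm10), giving 8 exon models, and promoter windows came from RefSeq. The values of 2 list genes are not reported here, although the counts and medians of their lists include them. The code of the fold rule was run on simulated data with planted changes larger than the limit. The simulated noise was smaller than the spread between these libraries, so that run gives no error rate for them. Python 3.11.15, numpy 2.4.6, pandas 2.3.3 and matplotlib 3.10.9 were used.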

Additional observations from a re-analysis of the deposited data

How the results depend on the processing

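No paired analysis was possible because each group is a single library, and no replicate could be left out. The log2 ratio of Spp1 ranged from 0.76 (relative to Hprt) to 0.90 (highest row only) over 7 alternatives. The ratios of Vsnl1 (0.082 to 0.19), Necab2 (0.13 to 0.27) and Fam19a1 (-0.100 to 0.0046) moved by less than the SD of similar genes. Reading Ldhb on its highest row alone turned its log2 ratio to 0.37, because the other row, which was lower in the alum + KLH-immunized pool, is then left out. The count of genes at least 1.5-fold higher, 117, became 43 among genes above 10 TPM and 267 at a limit of 25% higher. The count at least 1.5-fold lower, 181, became 82 above 10 TPM, 628 at a limit of 20% lower and 110 at 2-fold. Other large-fibre genes past the limit went from 0 to 5 at 25% higher, and were 0 under the other 5 alternatives. The medians of the large-fibre list (0.11 to 0.17) and the small-fibre list (-0.17 to -0.15) kept their signs under the 4 alternatives run. Scaling relative to Hprt was not among these 4, and it lowers the ratios of both lists. On that scale 7 of the 18 detected large-fibre genes and all 24 small-fibre genes were lower in the alum + KLH-immunized pool. So were 9199 of all 11648 detected genes. TPM keeps no depth, so the reads behind low values such as those of Necab2 are unknown.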
